A study of Mus musculus with 11 samples.

Results

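The Wnt pathway genes described here are Tcf7l2, Tcf7l1, Lef1, Axin2, Apc, Ctnnb1, Sfrp1, Dkk3, Nkd1 and Wif1. They were taken as every probe set of the Affymetrix Mouse Genome 430 2.0 array that the platform annotation gives to exactly 1 gene among these 10, which made 29 probe sets of 45101 on the array. RNA was measured on 11 arrays of cultured mouse oligodendrocyte lineage cells, in 3 groups. The 3 knockout oligodendrocyte arrays came from MRF fl/fl mice that were also Olig2 wt/cre. The 4 control oligodendrocyte arrays came from littermates that were MRF wt/fl and likewise Olig2 wt/cre, so the controls carried the same Cre allele and 1 floxed copy of MRF, the myelin gene regulatory factor now named Myrf. Cre was placed at the Olig2 locus, a gene of the oligodendrocyte lineage, and each oligodendrocyte group therefore kept 1 unaltered Olig2 copy. The 4 progenitor (OPC) arrays came from purified progenitors held for 6 days in the mitogen PDGF; their labels call them controls and give no genotype. Cells of all 3 groups were panned from postnatal day 7 brain with an antibody to the PDGF receptor alpha after removal of microglia and grown in 10 ng/ml PDGF-AA. The oligodendrocytes were then differentiated for 4 days without it, with 40 ng/ml triiodothyronine in serum-free medium. Nothing in the labels says whether replicate arrays came from separate animals or cultures, so the p-values below measure the spread between arrays, which may be partly technical.

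In the canonical Wnt pathway, secreted Wnt proteins bind Frizzled receptors and LRP co-receptors. Without that signal a destruction complex built on Apc and Axin marks beta-catenin, the product of Ctnnb1, for degradation; with it, beta-catenin accumulates, enters the nucleus and acts with DNA-binding proteins of the TCF and LEF family. In the oligodendrocyte lineage Tcf7l2 is known as a factor of cells that are leaving the progenitor state, and sustained beta-catenin activity is known to delay their maturation. Axin2 and Nkd1 are feedback inhibitors that the pathway itself induces, and Sfrp1, Wif1 and the Dickkopf-related Dkk3 are secreted proteins of the inhibitor families.

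Both listed transcription starts of Tcf7l2 and the start of Axin2 are shown because Tcf7l2 is the TCF gene whose level differed from the progenitors and Axin2 is the usual reporter of TCF activity. The stretches are the 250 bases before each RefSeq start on GRCm38.p6, read on the plus strand. The first Tcf7l2 stretch is chr19:55741560-55741809, the second is chr19:55895071-55895320, and the Axin2 stretch is chr11:108920099-108920348. Capitals mark the TCF motif CTTTGTT.
Tcf7l2, first start: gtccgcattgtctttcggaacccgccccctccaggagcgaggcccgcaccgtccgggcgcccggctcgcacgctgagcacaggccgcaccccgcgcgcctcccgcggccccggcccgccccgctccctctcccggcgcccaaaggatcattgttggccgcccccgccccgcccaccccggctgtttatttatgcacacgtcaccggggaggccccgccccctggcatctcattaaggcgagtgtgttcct
Tcf7l2, second start: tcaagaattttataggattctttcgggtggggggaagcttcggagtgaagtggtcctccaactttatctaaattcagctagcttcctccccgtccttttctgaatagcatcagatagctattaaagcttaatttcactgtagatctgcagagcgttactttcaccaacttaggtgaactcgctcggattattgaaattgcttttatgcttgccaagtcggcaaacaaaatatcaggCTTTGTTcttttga
Axin2: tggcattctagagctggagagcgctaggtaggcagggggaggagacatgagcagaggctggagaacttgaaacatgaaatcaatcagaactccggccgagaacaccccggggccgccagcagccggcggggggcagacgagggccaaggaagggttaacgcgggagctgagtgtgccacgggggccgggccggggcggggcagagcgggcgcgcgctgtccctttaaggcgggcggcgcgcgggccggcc
The letters CTTTGAT and CTTTGTT were searched on both strands, as ATCAAAG and AACAAAG on the other, in windows of 300 bases that reach 50 bases past each start. Of the 10 genes 7 had entries, 12 in all, and a single one held a match: the second Tcf7l2 start, with CTTTGTT beginning 14 bases before it. Among all 32851 RefSeq promoter windows of that length, CTTTGAT or its reverse complement occurred in 3.73% and CTTTGTT or its reverse complement in 5.85%. A match is a run of letters and does not show binding.

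The array values are MAS 5.0 signals, scaled by the authors so that each array's trimmed mean is 500. The Myrf probe set read 1904 to 2849 on the knockout arrays and 6215 to 7517 on the controls; on the progenitors it read 752 to 1135, except 6848 on OPC 2. That array stood apart in other ways: its mean log2 signal over 11 cell cycle genes was 10.44, against 12.47 to 12.66 on the other progenitor arrays. OPC 1 and OPC 4 had Gapdh 5' to 3' signal ratios of 0.332 and 0.120, while the other 9 arrays lay between 1.15 and 1.41. Such a ratio falls when RNA is degraded or copied short of its 5' end. The same ratio for actin was 0.304 on OPC 4 but 0.647 on OPC 1, near the 0.713 to 0.882 of the other 9. OPC 1 thus stood far apart on Gapdh only. Mean log2 signal of the 8 oligodendrocyte markers was 12.98 to 13.50 on controls, 10.17 to 11.34 on knockouts and 8.78 to 11.26 on progenitors. The oligodendrocyte cultures also carried astrocyte marker RNA: all 11 listed genes were kept, and their summed signal was 88449 to 96928 on knockouts, 58095 to 80962 on controls and 5881 to 10911 on progenitors. Of 11 pericyte, smooth muscle and meningeal markers 3 were kept, the contractile genes Acta2, Tagln and Myl9. Summed signals of all 11 were 4794 to 8361, 1028 to 2967 and 346 to 586 in the same order. Pdgfrb and Rgs5 never exceeded 92.6 and 184, and Col1a2, Col3a1 and Dcn reached 200 on knockout 3 alone. The sum is therefore not a measure of pericytes or meningeal cells. None of 8 microglial or 7 endothelial markers passed the filter, with highest signals of 147 and 283. In cultures of mixed cells, fewer cells of a type and less RNA per cell cannot be told apart. The part of these marker differences in the results below was not tested. Values given without an array do not test it, because single arrays differ in several of these levels at once.

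To be tested a probe set needed a signal of 200 or more on 3 or more arrays, and a gene was represented by its brightest such probe set. Of the 29 probe sets 20 passed, and they cover 8 of the 10 genes. Lef1 and Wif1 did not pass on any array and were not tested. Differences are given on the log2(signal + 16) scale with their standard error, and adjusted p-values come from limma with Benjamini-Hochberg adjustment over 10069 genes, with a threshold of 0.05. All 3 comparisons draw on the same 11 arrays, and any pair of comparisons shares a group.

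Between knockout and control oligodendrocytes no Wnt member passed the test: 0 of 8 by limma, 0 of 8 at an unadjusted p under 0.05, and 0 of 8 with arrays that did not overlap. Over all 10069 genes 7.53% were called, 2136 had an unadjusted p under 0.05, and 31.6% had arrays that did not overlap. Knockout and control arrays of the same replicate number deviated together, so the comparison was also fitted with that number as a block. This fit used the same-numbered oligodendrocyte arrays, without control 4, which has no partner. The block was chosen from these same data, and no label says what a number marks. Nor was the pairing exclusive, as knockout 3 correlated more with control 4 (0.328) than with control 3 (0.214). With the block 22.2% of all genes were called and still 0 of the 8 members, the nearest being Dkk3 at an adjusted p of 0.0661, Tcf7l2 at 0.0742 and Tcf7l1 at 0.0897 (limma). Without the block, none of the 20 kept probe sets passed singly either, where 5.48% of 18568 probe sets did. With the block 3 of them passed, all higher in knockouts, where 20.1% of all probe sets were called: Tcf7l1 1436207_at (0.98, adjusted p = 0.00758), Dkk3 1417312_at (0.74, 0.0239) and Ctnnb1 1430533_a_at (0.53, 0.0445). None of these 3 is the brightest probe set of its gene. The members' median difference was 0.12, against 0.03 over all genes, and 6 of 8 lay above 0.

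Against the progenitors, Tcf7l2 and Dkk3 rose and Apc fell in control oligodendrocytes, 3 of 8 members where 54.0% of all genes were called (24.4% higher and 29.6% lower). In knockout oligodendrocytes, set against the same 4 progenitor arrays, Tcf7l2 and Dkk3 rose and Apc fell, where 50.6% of all genes were called (23.8% higher and 26.8% lower). Arrays did not overlap for 3 members in controls (Dkk3, Apc and Ctnnb1; background 43.8%) and for 2 in knockouts (Dkk3 and Apc; background 49.9%). The members' share called lies under the background in both comparisons. The members' median difference was 0.11 in controls and 0.09 in knockouts, against -0.09 and -0.05 over all genes.

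**Figure D1:**
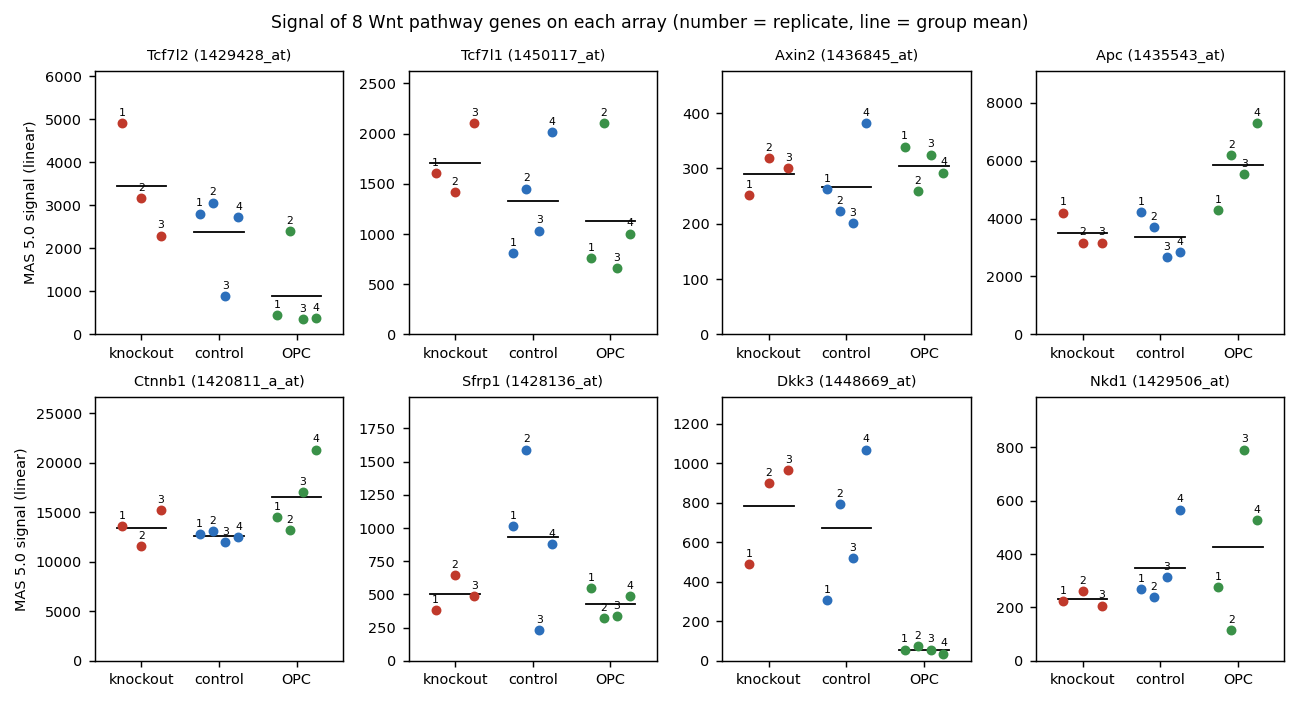
MAS 5.0 signal (linear axis from 0) of the brightest probe set of each of the 8 tested genes on every array, by group, with points numbered by replicate and a line at the group mean. Dkk3 is at 36.6 to 72.3 on the progenitor arrays and at 306 to 1069 on the oligodendrocyte arrays, while knockout and control arrays overlap for every gene.

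**Figure D2:**
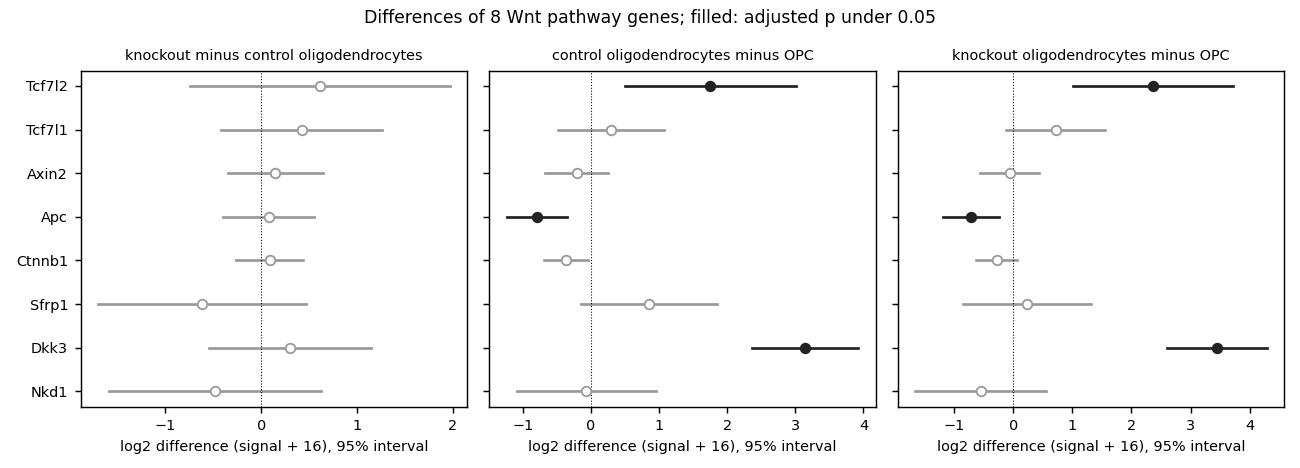
Log2 difference of each tested gene in the 3 comparisons, with the 95% interval of the limma fit as bars and filled symbols for an adjusted p under 0.05. Intervals of the knockout against control comparison include 0 for all 8 genes, and Dkk3 and Tcf7l2 lie above 0 against the progenitors. The size plotted for Dkk3 there rests on progenitor signals under 100, for which only a bound holds.

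Tcf7l2, the TCF family member of differentiating oligodendrocytes, was high in both kinds of oligodendrocyte culture. Its brightest probe set, 1429428_at, read 4904, 3166 and 2296 on the knockout arrays, 2808, 3061, 896 and 2723 on the controls, and 455, 2408, 351 and 385 on the progenitors. Group means were 3455 ± 1328 (SD, n = 3), 2372 ± 994 (SD, n = 4) and 900 ± 1006 (SD, n = 4). Control 3 was the lowest oligodendrocyte array and OPC 2 the highest progenitor array, higher than knockout 3, so the groups overlap in every comparison. Controls exceeded progenitors by 1.75 ± 0.58 (SE; adjusted p = 0.0224 by limma), a 3.37-fold difference. Knockouts exceeded progenitors by 2.37 ± 0.62 (adjusted p = 0.00779), or 5.17-fold. Knockouts and controls differed by 0.62 ± 0.62 (adjusted p = 0.626), with a 95% interval from -0.74 to 1.97.

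How far Tcf7l2 rose depended on which progenitor arrays were used. Without OPC 2 the difference grew to 2.39 in controls (adjusted p = 0.000194) and 3.01 in knockouts (6.05e-05), where 60.9% and 58.9% of all genes were called. Without OPC 1 and OPC 4, the arrays with the low Gapdh ratios, it was 1.20 (adjusted p = 0.200) and 1.81 (0.0802), and neither passed, where 42.2% and 40.9% of all genes were called. The control call was also lost, with adjusted p from 0.0556 to 0.0652, when control 1, control 2, control 4, OPC 1, OPC 3 or OPC 4 was left out alone. Without control 3 it was 2.17 (adjusted p = 0.00861). Averaged over the 3 kept probe sets of the gene, controls exceeded progenitors by 1.35 and did not pass (adjusted p = 0.120), and knockouts by 1.95 (0.0472).

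The other Tcf7l2 probe sets followed the same arrays. Probe set 1429427_s_at read 3069, 1278 and 1013 in knockouts, 1608, 1801, 341 and 1439 in controls, and 213, 2853, 402 and 161 in progenitors. Control 3 was again the lowest control, and OPC 2 exceeded every array but knockout 1. Control 3 and OPC 2 stood in the same places at 1425229_a_at, with 1094, 387 and 252 in knockouts, 474, 525, 86.2 and 338 in controls, and 85.0, 702, 88.6 and 51.7 in progenitors. In the fit of single probe sets, adjusted over 18568, controls exceeded progenitors by 1.25 (adjusted p = 0.210) and 1.06 (0.256) at these probe sets, and only 1429428_at passed (0.0249). Among single probe sets 53.3% were called in that comparison. Knockouts exceeded progenitors by 1.77 (adjusted p = 0.109 by limma) at 1429427_s_at and 1.71 (0.0997) at 1425229_a_at. There too only 1429428_at passed (0.00902), where 50.6% of single probe sets were called. The remaining probe set, 1426639_a_at, stayed at or below 174 and was not tested. Beside these values, OPC 2 had the lowest cell cycle level of the progenitors and control 3 the highest of the controls, 9.93 against 8.28 to 9.10. Control 3 also had the lowest astrocyte level of the controls, 11.71 against 11.97 to 12.45. Yet its oligodendrocyte marker level was the highest of the controls, 13.50 against 12.98 to 13.41. OPC 2 had the highest oligodendrocyte marker level of the progenitors, 11.26 against 8.78 to 10.94. The part of any of these marker lists in the Tcf7l2 level was not tested.

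**Figure D3:**
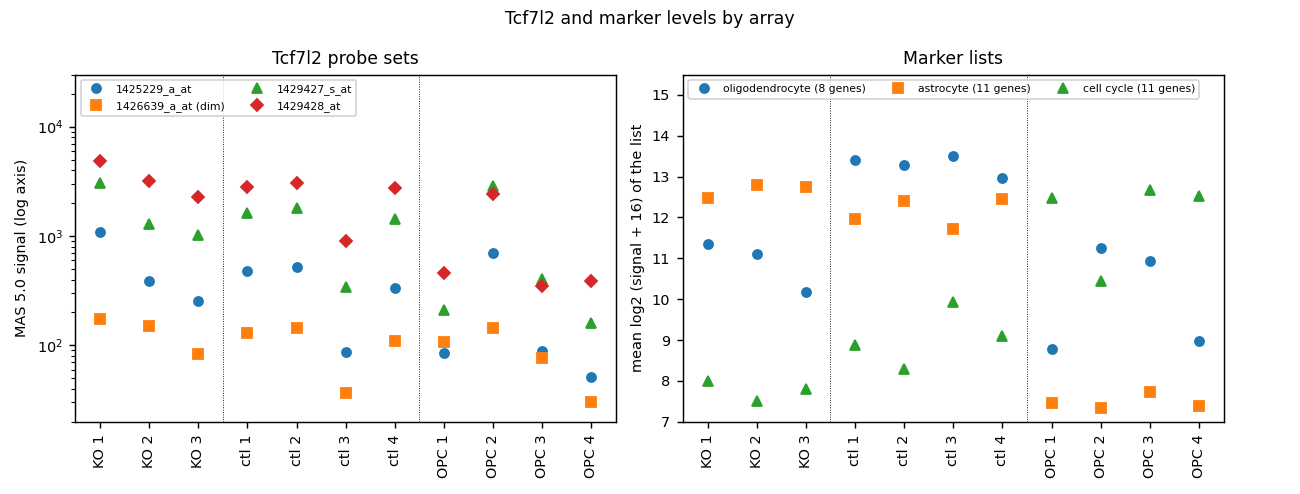
Left, MAS 5.0 signal (log axis) of the 4 Tcf7l2 probe sets on each array; right, mean log2(signal + 16) of the oligodendrocyte, astrocyte and cell cycle marker lists on the same arrays. Control 3 lies below and OPC 2 above the rest of its group at the 3 brighter probe sets, and the same 2 arrays stand apart in the cell cycle list. In the oligodendrocyte list both are the highest arrays of their group.

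Tcf7l1, a TCF protein best known as a repressor of Wnt targets, did not pass the test in any comparison. At 1450117_at the knockouts read 1604, 1419 and 2102, the controls 813, 1452, 1034 and 2012, and the progenitors 761, 2102, 662 and 1005. The 3 groups overlap, and OPC 2 was the highest progenitor array here too. Differences were 0.42 ± 0.39 between knockouts and controls (adjusted p = 0.584), 0.30 between controls and progenitors (0.503) and 0.72 between knockouts and progenitors (0.138). Without OPC 2 the last was 1.07 and passed (adjusted p = 0.00893). The second probe set, 1436207_at, read 1154, 1445 and 1323 in knockouts, 674, 669, 610 and 1168 in controls, and 427, 1404, 442 and 557 in progenitors. Knockouts lay above every progenitor array but OPC 2 and above every control but control 4. As a single probe set it was 1.05 higher in knockouts than in progenitors (adjusted p = 0.0356 by limma, background 50.6%), and its difference from controls passed only with the replicate block, as given above, or with OPC 3 as the only progenitor array (0.78, adjusted p = 0.0493). Lef1, the family member named for the lymphoid enhancer, was dim: its 2 probe sets never exceeded 48.5.

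Apc, the scaffold of the destruction complex, was lower in oligodendrocytes than in progenitors. Probe set 1435543_at read 4201, 3168 and 3166 in knockouts, 4223, 3711, 2663 and 2837 in controls, and 4299, 6194, 5545 and 7282 in progenitors. Every progenitor array was above every oligodendrocyte array, OPC 1 narrowly. The difference was -0.79 ± 0.20 in controls (adjusted p = 0.00626), 1.73-fold lower, and -0.72 ± 0.22 in knockouts (adjusted p = 0.0167), 1.64-fold lower. Knockouts and controls differed by 0.08 ± 0.22 (adjusted p = 0.888). The knockout call was lost without knockout 2 (adjusted p = 0.0662) or knockout 3 (0.0616). With OPC 3 as the only progenitor array, an alternative chosen after seeing the data in which that array is assumed to vary like the other groups, the differences were -0.75 (adjusted p = 0.0533) and -0.67 (0.0849), and neither passed.

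A second Apc probe set, 1420956_at, gave the same order, with 2382, 1719 and 1567 in knockouts, 1597, 2002, 1312 and 1467 in controls, and 2587, 2961, 2674 and 3393 in progenitors. Progenitors lay above all oligodendrocyte arrays, knockouts and controls overlapped, and the differences from progenitors were -0.87 (adjusted p = 0.00270) in controls and -0.63 (0.0220) in knockouts. The third, 1450056_at, did not follow: it read 594, 583 and 395, then 421, 543, 318 and 376, then 147, 757, 530 and 108 in progenitors. OPC 1 and OPC 4 were the lowest of all 11 arrays at this probe set, and OPC 2 the highest. It differed from progenitors by 0.48 in controls (adjusted p = 0.440) and 0.81 in knockouts (0.232), and by -0.62 (0.0813) and -0.29 (0.419) without OPC 1 and OPC 4. Averaged over its 3 kept probe sets, Apc was -0.39 in controls (adjusted p = 0.161) and -0.18 in knockouts (0.560), so the gene's call rests on the brighter 2 probe sets. Its remaining probe set, 1420957_at, was too dim to test.

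Ctnnb1, the gene of beta-catenin, had 3 kept probe sets that disagreed in direction. The brightest, 1420811_a_at, read 13561, 11531 and 15225 in knockouts, 12796, 13079, 11983 and 12445 in controls, and 14524, 13150, 16999 and 21298 in progenitors. All controls lay below all progenitors, by a small margin at OPC 2, while knockout 3 lay above OPC 1 and OPC 2, and knockout 1 above OPC 2. The difference was -0.37 ± 0.15 in controls (adjusted p = 0.0546) and -0.28 in knockouts (0.164), and neither passed. Knockouts and controls differed by 0.09 ± 0.16 (adjusted p = 0.810), with a 95% interval from -0.26 to 0.44. Without OPC 2 the control difference was -0.47 and passed (adjusted p = 0.0147).

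The other Ctnnb1 probe sets went the opposite way against the progenitors. At 1450008_a_at knockouts read 6283, 5599 and 4943, controls 4756, 5185, 3243 and 3752, and progenitors 1721, 3514, 3723 and 1235. At 1430533_a_at knockouts read 3389, 3273 and 2566, controls 2586, 2483, 1454 and 1581, and progenitors 237, 1389, 1265 and 117. OPC 1 and OPC 4 were the lowest arrays at both. Controls exceeded progenitors by 0.85 (adjusted p = 0.0423) and 1.99 (0.0214), and knockouts by 1.27 (0.0103) and 2.63 (0.00860), in the single probe set fit. Without OPC 1 and OPC 4 the control differences were 0.20 (0.433) and 0.56 (0.103), and those of knockouts 0.62 (0.0370) and 1.19 (0.00670). Averaged over all 3 probe sets, Ctnnb1 was 0.83 higher in controls than in progenitors and 1.21 higher in knockouts, the reverse of its brightest probe set. The direction for this gene therefore cannot be given without naming the probe set.

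**Figure D4:**
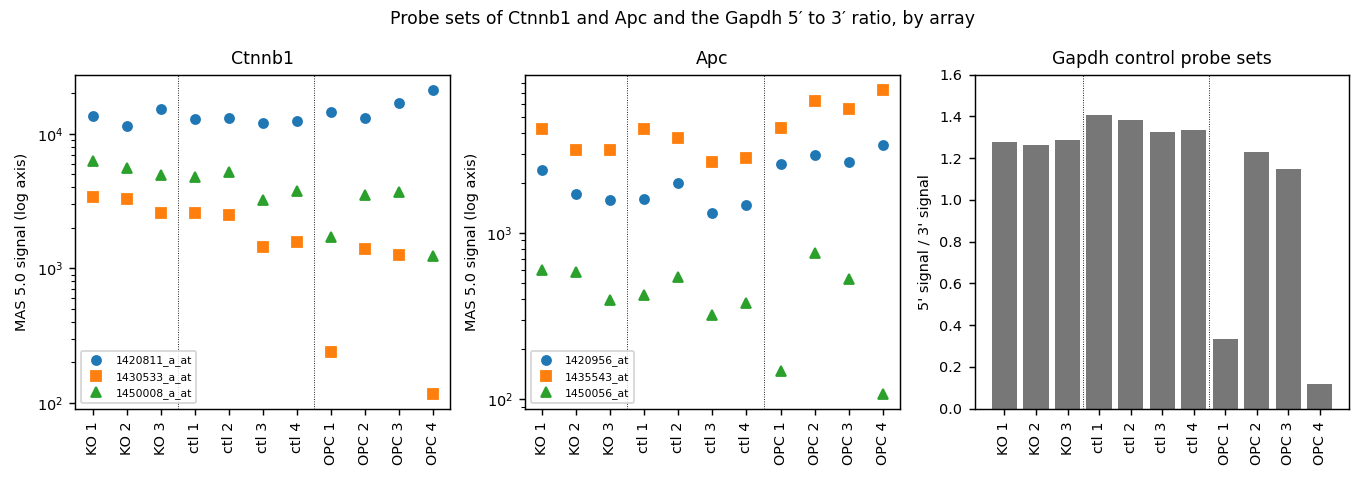
Signal of the Ctnnb1 and Apc probe sets (log axis) on each array, beside the Gapdh 5' to 3' signal ratio of that array. OPC 1 and OPC 4, with ratios of 0.332 and 0.120, are lowest at Ctnnb1 1430533_a_at and 1450008_a_at and at Apc 1450056_at, and not at the brightest probe set of either gene.

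Axin2, the feedback scaffold whose promoter is shown above, passed the test in none of the comparisons. Probe set 1436845_at read 252, 318 and 300 in knockouts, 263, 224, 201 and 381 in controls, and 340, 259, 325 and 293 in progenitors. These readings span less than a doubling, and the groups overlap throughout. The differences were 0.15 ± 0.23 between knockouts and controls (adjusted p = 0.769; 95% interval -0.35 to 0.65), -0.21 between controls and progenitors (0.420) and -0.06 between knockouts and progenitors (0.839). Its other probe set stayed at or below 101.

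Among the secreted inhibitors, Dkk3 separated oligodendrocytes from progenitors on every array. Probe set 1448669_at read 488, 902 and 967 in knockouts, 306, 793, 521 and 1069 in controls, and 57.0, 72.3, 57.0 and 36.6 in progenitors. Every oligodendrocyte array exceeded every progenitor array, including OPC 2. Both Dkk3 probe sets were kept through oligodendrocyte arrays alone. The filter thus admitted Dkk3 by the groups where it is high, and its calls and separation are no independent support. Because no progenitor array reached a signal of 100, the folds are bounds against that floor: at least 5.38-fold higher in controls and at least 6.63-fold in knockouts. Both passed the test (limma adjusted p = 3.64e-05 and 3.67e-05). The other probe set, 1417312_at, read 698, 1568 and 1132, then 436, 1076, 545 and 949, then 32.3, 39.3, 5.0 and 24.9, with bounds of at least 6.20-fold and 9.41-fold. Knockouts and controls overlapped and differed by 0.30 ± 0.39 (adjusted p = 0.715), with a 95% interval from -0.54 to 1.14. Both calls held without any single array. The astrocyte list was also higher in oligodendrocyte cultures, at a mean log2 of 12.48 to 12.79 in knockouts, 11.71 to 12.45 in controls and 7.33 to 7.73 in progenitors. The pericyte, smooth muscle and meningeal list was at 6.86 to 8.46, 6.34 to 7.22 and 5.22 to 5.36. The cell cycle list separated progenitors as well, as the higher group. Knockouts lay above all controls on the astrocyte list, where Dkk3 overlapped. The part of any of these lists in the Dkk3 level was not tested.

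Sfrp1, a soluble Frizzled-related protein that binds Wnt proteins, had 5 kept probe sets. The brightest, 1428136_at, read 379, 643 and 485 in knockouts, 1016, 1590, 231 and 880 in controls, and 548, 324, 338 and 489 in progenitors. Control 3 was the lowest of all 11 arrays and the other controls the highest, so the groups overlap. Controls differed from progenitors by 0.85 (adjusted p = 0.135), knockouts from progenitors by 0.24 (0.711) and knockouts from controls by -0.62 ± 0.50 (0.527). Without control 3 the control difference was 1.41 (adjusted p = 0.00195) and the knockout against control difference -1.17 (0.0471), the only member call in that comparison when a single array was left out.

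At the 4 other Sfrp1 probe sets controls exceeded progenitors, and all passed in the single probe set fit. At 1448395_at knockouts read 376, 493 and 487, controls 493, 721, 229 and 913, and progenitors 107, 227, 210 and 53.3, differing by 1.88 in controls (adjusted p = 0.00516) and 1.66 in knockouts (0.0152). At 1416594_at knockouts read 173, 215 and 218, controls 317, 390, 87.5 and 264, and progenitors 28.3, 58.4, 6.4 and 23.6, at least 2.16-fold higher in controls and 1.87-fold in knockouts. Knockouts were above all progenitors at both, and control 3 was the lowest control. Probe set 1460187_at had the widest spread, 161, 567 and 193, then 1059, 1467, 51.9 and 322, then 17.7, 114, 72.1 and 44.0 (controls 2.66 above progenitors, adjusted p = 0.0198; knockouts 2.00 above, 0.0846, not passing). The fifth, 1438620_x_at, whose suffix marks probes that can match other transcripts, gave 1.19 in controls at an adjusted p of 0.0499 and 1.03 in knockouts (0.110). Its control call was lost in 16 of 21 alternatives. Probe sets 1416594_at, 1460187_at and 1438620_x_at were kept through oligodendrocyte arrays alone, so the filter admitted them by the groups where they are high. The mean over all 5 probe sets was 1.84 higher in controls than in progenitors (adjusted p = 0.00507) and 1.46 higher in knockouts (0.0252). Wif1, a secreted Wnt-binding inhibitor, never exceeded 23.4 at its 1 probe set.

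Nkd1, the intracellular feedback inhibitor that acts on Dishevelled, was dim and variable. Probe set 1429506_at read 225, 262 and 206 in knockouts, 270, 237, 312 and 566 in controls, and 277, 114, 791 and 526 in progenitors. OPC 2 was the lowest array and OPC 3 the highest, so the progenitors spanned the other groups. No comparison passed: -0.48 between knockouts and controls (adjusted p = 0.647), -0.07 between controls and progenitors (0.915) and -0.55 between knockouts and progenitors (0.388). Without OPC 2 the last was -1.03 and passed (adjusted p = 0.0282). The other 3 Nkd1 probe sets were not kept.

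The rest of the pathway was followed through 123 further genes in 6 role lists, of which 121 had a probe set and 70 were kept. Between knockouts and controls 2 rose and 3 fell of 70, where 3.64% of all genes rose and 3.88% fell. The corepressor Tle4 read 4043, 3229 and 2325 in knockouts against 1175, 1653, 981 and 1848 in controls, a rise of 1.18 ± 0.33 (adjusted p = 0.0486), and the growth factor gene Vegfa rose by 1.34 ± 0.33 (0.0290). The related corepressor Tle1 read 328, 306 and 328 against 1002, 896, 1025 and 681, a difference of -1.43 ± 0.32 (adjusted p = 0.0178). Daam1, a formin of the non-canonical branch, changed by -1.05 (0.0414) and the receptor Fzd5 by -0.99 (0.0452). Arrays of these 5 genes did not overlap, as for 31.6% of all genes. Fzd5 was kept through its 4 control arrays alone, at 214 to 331, and read 110 to 138 in knockouts. The filter thus admitted Fzd5 by the group where it is high, and its call and separation are no independent support. Each of the 5 lost its call when any one of several arrays was left out. Adjusted p (limma) then reached up to 0.264 for Tle1, 0.196 for Tle4, 0.170 for Fzd5, 0.168 for Daam1 and 0.136 for Vegfa. With the replicate block on the oligodendrocyte arrays 19 of 70 rose and 6 fell, including all 5, where 13.0% of all genes rose and 9.24% fell. With the block fitted over all 11 arrays 3 rose and 1 fell, and Daam1 (adjusted p = 0.0544) and Fzd5 (0.0726) were not called. The 70 genes' median difference was 0.31, against 0.03 over all genes.

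Against progenitors 21 of the 70 rose and 17 fell in controls, where 24.4% of all genes rose and 29.6% fell, with a median of 0.25 against -0.09 over all genes. In knockouts 25 rose and 12 fell, where 23.8% of all genes rose and 26.8% fell, with a median of 0.49 against -0.05. The counts by role that follow are to be read against the same shares. Values in parentheses below are log2 differences of genes that passed (limma). When single arrays were left out, 30 of the 38 control calls and 25 of the 37 knockout calls held wherever the gene was still tested. These counts include Wnt5b and Lgr5, which were tested in only 8 of the 11 omissions and failed the filter in the rest. Of the calls named below, those of Wnt7b, Sfrp5, Ctnnbip1, Tle1, Tle3 and Tnfrsf19 in controls and of Fzd4, Kremen1 and Gsk3b in knockouts were lost without 1 or more single arrays, at adjusted p up to 0.0871, 0.0903, 0.103, 0.601, 0.0691, 0.119, 0.0522, 0.0514 and 0.145 in that order. Of the 6 kept genes of ligands and their secretion 5 rose in controls. These were Wnt5a (2.33), Wnt7a (1.95), Wnt7b (0.73), Porcn (0.68), an acyltransferase that prepares Wnt proteins for export, and Wnt5b. In knockouts 5 of 6 rose as well, Wnt5a by 3.07 and Wnt7a by 2.42. Progenitors read 28.7 to 120 for Wnt5a and 49.7 to 285 for Wnt7a, so the sizes of these rises rest on dim signals and are uncertain. Wnt5a was kept through oligodendrocyte arrays alone. Wnt5b was kept through its 3 knockout arrays alone, at 200 to 365. It read 57.3 to 158 in controls and at most 24.0 in progenitors, so its rise is bounded only at 1.07-fold or more in controls and at least 2.41-fold in knockouts.

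Receptors moved both ways. Of 12 kept receptors and co-receptors 6 rose and 2 fell in controls. Fzd8 (1.92), Fzd5 (1.47) and Lrp4 (1.38) rose, while Fzd4 (-1.88) and the R-spondin receptor Lgr5 (-1.81) fell. The lower group was dim at the last 4 of these, at 64.4 to 126 for Fzd5 and 62.1 to 184 for Lrp4 in progenitors, and at 44.2 to 121 for Fzd4 and 65.8 to 110 for Lgr5 in controls. The sizes of those differences rest on such dim signals and are uncertain. Fzd4 and Lgr5 were kept through progenitor arrays alone, Fzd5 through control arrays alone and Lrp4 through oligodendrocyte arrays alone. The filter thus admitted these genes by the group or groups where they were high, and their calls are no independent support. In knockouts 6 rose and 2 fell, with Lgr4 (1.91) the largest rise, Fzd4 at -1.37 and Lgr5 at least 2.94-fold lower. Of 5 further antagonists 2 rose in controls, Sfrp5 and Frzb (1.41), and 3 in knockouts, Sfrp5, Frzb (2.47) and Kremen1 (1.08). Sfrp5, under 100 in all progenitor arrays, was at least 1.51-fold higher in controls and at least 4.66-fold in knockouts. Frzb read 41.1 to 102 in progenitors, so the sizes of its rises are uncertain. Both genes were kept through oligodendrocyte arrays alone, the groups where they were high.

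Inside the cell, 1 of 18 cytoplasmic genes rose and 5 fell in controls. The formin gene Daam2 read 1288, 1560, 792 and 1220 in controls, 1957, 2987 and 1364 in knockouts and 21.4, 34.9, 44.0 and 35.3 in progenitors. No progenitor array reached the floor of 100, and Daam2 was at least 10.3-fold higher in controls and at least 17.4-fold in knockouts. It was kept through oligodendrocyte arrays alone, the groups where it is high. The kinase Gsk3b, a partner of Apc in the destruction complex, read 910, 689, 1593 and 1672 in controls against 3455, 6296, 4524 and 2075 in progenitors, a difference of -1.72 ± 0.37 (adjusted p = 0.00233). Averaged over its probe sets Gsk3b was -0.86 (0.00202), and with OPC 3 as the only progenitor array -0.43, not passing (0.335). Csnk1d (-0.94) and Amer1 (-0.80), which also act in or on that complex, fell in controls too. The Csnk1d call was lost with the mean of its probe sets (-0.10, adjusted p = 0.520) and without OPC 1 and OPC 4 (-0.45, 0.102). In knockouts 3 of 18 rose and 3 fell, Gsk3b at -1.12.

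Of 18 nuclear partners 3 rose and 8 fell in controls, and 2 rose and 5 fell in knockouts. Tle1 (1.19), Ctnnbip1 (0.65), an inhibitor of beta-catenin binding to TCF proteins, and Tle3 (0.53) rose in controls. Tle4 (-1.76), Ctbp2 (-1.20) and Hdac2 (-0.97), all corepressors or deacetylases, fell there. Tle1 rose at the probe set used, and that result reversed where another of its probe sets stood for the gene. Of 11 textbook Wnt targets 4 rose and 2 fell in controls: Cd44 (3.82), Jun (2.07), Vegfa (1.21) and Nrcam (1.00) were higher, Tnfrsf19 (-0.91) and Myc (-0.83) lower. In knockouts 6 rose and 2 fell, with Cd44 (4.06) the largest rise and Ccnd1 (-2.48) the largest fall. Cd44 read 15.3 on OPC 2 and 344 to 456 on the other progenitor arrays, so the sizes of its rises are uncertain. These target genes answer to many other signals, and Sox9, which is on that list, is also on the astrocyte list.

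**Figure D5:**
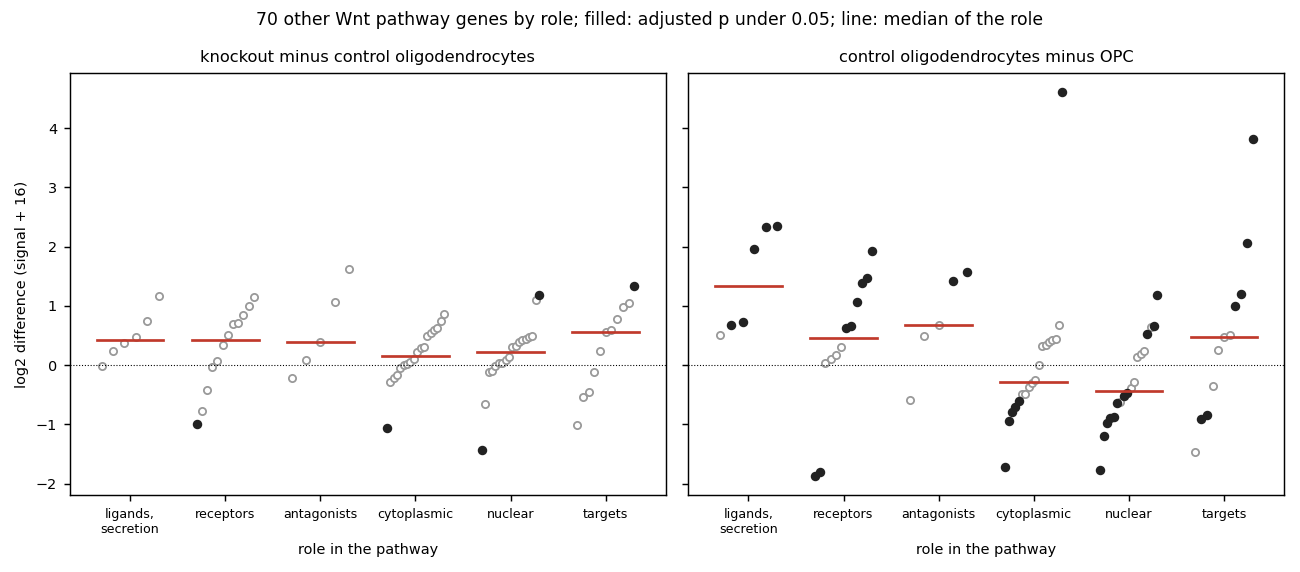
Log2 difference of each of the 70 further Wnt pathway genes between knockouts and controls (left) and between controls and progenitors (right), by role list, with filled symbols for an adjusted p under 0.05 (limma) and a line at each list's median. On the right all 6 ligand and secretion genes lie above 0 and nuclear partners lie on both sides of it; on the left 5 genes are filled.

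Genes whose pattern over the 11 arrays was nearest to the 3 called members were listed by the root mean square of the difference between centred log2 values. For Tcf7l2 they were Folr2 (0.32), Clca3a1 (0.34) and Aldh1b1 (0.36). The nearest to Apc were Crebbp (0.13), a coactivator on the nuclear list, Stox2 (0.16) and Cdk12 (0.17). Nearest to Dkk3 were Fgl2 (0.34), Cmbl (0.35) and Lgi4 (0.36). These distances are descriptions over arrays that share depth, scaling and RNA quality.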

How the data were processed

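RNA of 11 samples was hybridised to Mouse Genome 430 2.0 arrays. The deposited intensity values are probe set signals that the authors computed with GCOS 1.3 and MAS5, scaled to a target of 500 per array, per the labels' protocols and the submitters' processing notes. Each array's 2% trimmed mean was 500. Signals carry no counts, so the number of arrays limits the precision. The 64 control probe sets were left out. The platform annotation gave 34958 probe sets 1 gene, 932 several and 9211 none, and only the first kind was used for genes. The fit of single probe sets and its adjustment ran over all 18568 kept probe sets, of which 17121 have 1 gene. Signals were kept at 200 or more on at least 3 arrays (18568 probe sets, 10069 genes), log2(signal + 16) was fitted with limma 3.58.1 (trend, R 4.3.3) over all 3 groups, and p-values were adjusted by Benjamini-Hochberg. The fit was tested on simulated data in which 200 of 10069 genes were changed, with independent normal noise. At a log2 of 1 it recovered 43% between knockouts and controls, 53% between controls and progenitors and 46% between knockouts and progenitors. At a log2 of 2 it recovered 83%, 92% and 92% in that order, with 5.97%, 4.61% and 3.50% of all calls false. Far more genes were called in the real data, so these shares need not hold there. Same-numbered knockout and control arrays had deviation correlations of 0.242, 0.241 and 0.214, so the numbers were taken to pair those samples; no label says what a number marks. The pairing is not exclusive: knockout 3 correlated more with control 4 (0.328), and knockout 1 with control 2 (0.140) and knockout 2 with control 1 (0.159) were also above 0. Progenitor arrays were not paired. Alternatives changed the pseudocount, filter, normalization, summary of probe sets, groups fitted, replicate block and arrays. Further pathway genes were named when called between knockouts and controls, or among the largest called differences within a role list between controls and progenitors. For knockouts against progenitors only some of the called genes were named. The members and lists were chosen with earlier results of these data known. Promoters were taken from RefSeq (GRCm38.p6). Because the array files name no genome build, no gene coordinates were used.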

Additional observations from a re-analysis of the deposited data

Results flagged for a closer look

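In groups of 4 arrays, 40 combinations of probe set and group were examined for an array set apart from the rest, and 4 had one; chance gives about 1 in 20. Control 3 was set apart at the low end of Tcf7l2 1429428_at (signal 896), where its gap to the next array was 0.904 of the group's range. It was likewise lowest at Tcf7l2 1429427_s_at (signal 341), with a ratio of 0.863. OPC 2 was set apart at the high end of Tcf7l2 1429428_at (signal 2408), with a ratio of 0.868. Control 4 was set apart at the high end of Tcf7l1 1436207_at (signal 1168), with a ratio of 0.846. The 3 Tcf7l2 entries concern 2 probe sets of 1 gene on the same arrays and are not independent.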

How the results depend on the processing

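The 3 groups hold 3 or 4 arrays each, and where every array of a group read under 100 only a bound is given. Calls among the members numbered 0 to 1 between knockouts and controls, 2 to 4 between controls and progenitors and 2 to 5 between knockouts and progenitors when single arrays were left out. In the same order, all genes called ranged over 348 to 1315, 4597 to 6106 and 3875 to 5909, and other Wnt pathway genes called over 0 to 10, 33 to 43 and 28 to 45. Between knockouts and controls, 758 genes became 1587 with the 2 compared groups only, 2237 with the replicate block on those groups and 1583 with OPC 3 as the only progenitor array; the 5 other Wnt genes became 3 with a pseudocount of 1, then 16, 25 and 15 with those 3 settings, and 9 without OPC 1 and OPC 4. The replicate block on knockouts and progenitors, which their deviations do not pair (correlations of -0.117, 0.033 and -0.079), left 3091 genes of 5098. Those of controls and progenitors were -0.069, 0.193, 0.111 and 0.073. With the mean of a gene's kept probe sets, Ctnnb1 reversed to 0.83 in controls and 1.21 in knockouts against progenitors, Axin1 to 0.27 in controls, Csnk1d to 0.083 and Fbxw11 to 1.01 in knockouts. With quantile normalization Ctnnb1 reversed to 0.23 in knockouts against progenitors, and with a replicate block over all arrays Axin2 to 0.019. When single arrays were left out, the difference between knockouts and controls ranged from -0.058 to 0.20 for Apc, -0.0074 to 0.19 for Ctnnb1 and -0.017 to 0.61 for Dkk3; that between knockouts and progenitors from -0.13 to 0.030 for Axin2; and that between controls and progenitors from -0.56 to 0.32 for Nkd1 and -0.52 to 1.33 for Tle1, where another probe set became the brightest. Single probe sets between knockouts and controls ranged from -0.63 to 0.027 (Sfrp1 1416594_at), -0.58 to 0.042 (Sfrp1 1438620_x_at), -0.60 to 0.043 (Sfrp1 1448395_at, also 0.043 with the replicate block) and -0.021 to 0.84 (Tcf7l2 1429427_s_at). Without OPC 1 and OPC 4, Nkd1 was 0.083 in controls, Tcf7l1 1436207_at -0.068 in controls, and Apc 1450056_at -0.62 in controls and -0.29 in knockouts; with OPC 3 alone the last 2 were -0.37 and -0.040. Except where a changed set of arrays or probe sets is named, the cause was not tested. Over the 8 tested members, Dkk3 kept both calls against progenitors in all alternatives run, though the main filter admitted it through oligodendrocyte arrays alone.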
